A study of Mus musculus with 8 samples.

Results

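The DNA repair genes of fetal liver stem cell-like populations were read in the authors' deposited comparison of GFP+ with Tomato+ cells. Members were taken by symbol alone. The rule took Fanc genes with a single closing letter, numbered genes of the Xrcc, Rad, Ercc, Brca, Msh, Mlh, Parp and Lig series, and Atm, Atr, Prkdc, Chek1, Chek2 and Trp53bp1. It found 71 genes among the 14033 symbols and 14268 rows of the table, each in 1 row. Of these, 67 had an overall mean of at least 50 normalized counts.

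The GFP+ fraction had 4 libraries and the Tomato+ fraction 4, all from livers of E14.5 mouse embryos (mid-gestation) of Flt3-Cre mice crossed to the mTmG strain. In this reporter, cells make the red Tomato protein until Cre acts, and GFP from then on. GFP+ cells or their ancestors had therefore expressed the Flt3-driven Cre, and Tomato+ cells carried the same alleles without recombination. Both fractions were sorted as lineage-negative cells with Kit, Sca1 and CD150 on the surface. The labels do not say whether the libraries of a fraction come from separate embryos, so the authors' p-values may measure technical spread alone. The table holds group means, a ratio and p-values, with no value per library, so no SD or standard error can be given and the depth of each library is unknown.

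The fractions differed in the genes that mark them. The authors' deposited table gives Flt3, the receptor gene behind the Cre driver, 3753 normalized counts in GFP+ against 1617 in Tomato+. For Slamf1, the gene of CD150, it gives 27.9 in GFP+ against 119 in Tomato+. Each of the 10 stem cell genes listed for this check was lower in GFP+ cells at the authors' adjusted p under 0.05, the threshold used throughout.

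DNA repair is a set of pathways that deal with different kinds of damage, in part the same. Base excision and nucleotide excision repair replace damaged bases on a strand, mismatch repair corrects copying errors, and end joining and homologous recombination mend broken chromosomes. The Fanconi anemia pathway removes crosslinks between strands, and the kinases ATM and ATR report damage to the cell cycle. Loss of Fanconi genes causes bone marrow failure in people, and loss of end joining genes blocks lymphocyte development in mice, since V(D)J recombination of antigen receptor genes needs that pathway.

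Many repair genes are known targets of E2F factors, which act at the entry into DNA synthesis, so their promoters were searched for E2F letters. The letters were TTTCCCGC, TTTCGCGC, TTTGCCGC and TTTGGCGC on either strand, in windows from 250 bases before to 50 after the start of transcription (RefSeq, GRCm38.p6). Of the 71 genes, 54 matched a window by current symbol or synonym. Of these 54, 9 held such letters (16.7%), against 4.69% of the 9186 genes of the table with a window and 2.6% of all 27025 genes with a window. The 9186 genes were matched by identical symbol only, without synonyms. The 9 genes were Brca2, Chek2, Fancg, Lig1, Msh3, Msh5, Msh6, Rad51c and Xrcc6. A match is a description of letters, not a site. The CHR letters TTTGAA or TTCGAA, found in promoters of genes active in mitosis, stood in 7 of the 54 (13.0%), against 16.4% of the genes of the table with a window and 21.7% of all genes with a window.

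The promoters of 4 genes are shown because they carry E2F letters in 4 different groups of the repair list while their transcripts did not pass the test between the fractions. Each is the gene of highest mean in its group with 1 window and such letters before the start, and the 250 bases before the start are printed 5′ to 3′ on the strand of the gene, with the E2F letters in capitals (build GRCm38.p6).
Brca2 (chr5:150522371-150522620, plus strand): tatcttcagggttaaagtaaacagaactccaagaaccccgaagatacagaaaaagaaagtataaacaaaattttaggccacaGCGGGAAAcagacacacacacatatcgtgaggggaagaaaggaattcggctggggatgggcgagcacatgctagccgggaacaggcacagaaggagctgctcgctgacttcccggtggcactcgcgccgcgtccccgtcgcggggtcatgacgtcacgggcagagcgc
Fancg (chr4:43010302-43010551, minus strand): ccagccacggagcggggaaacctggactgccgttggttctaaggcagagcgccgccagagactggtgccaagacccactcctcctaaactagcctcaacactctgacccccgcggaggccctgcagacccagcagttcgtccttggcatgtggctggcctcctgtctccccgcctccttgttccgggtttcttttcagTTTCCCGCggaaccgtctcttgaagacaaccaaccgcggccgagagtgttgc
Xrcc6 (chr15:82016119-82016368, plus strand): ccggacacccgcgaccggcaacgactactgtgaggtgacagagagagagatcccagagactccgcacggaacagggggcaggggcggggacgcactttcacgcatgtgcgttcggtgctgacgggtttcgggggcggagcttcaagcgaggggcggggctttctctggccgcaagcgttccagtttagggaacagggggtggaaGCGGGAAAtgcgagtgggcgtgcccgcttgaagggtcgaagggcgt
Chek2 (chr5:110839733-110839982, plus strand): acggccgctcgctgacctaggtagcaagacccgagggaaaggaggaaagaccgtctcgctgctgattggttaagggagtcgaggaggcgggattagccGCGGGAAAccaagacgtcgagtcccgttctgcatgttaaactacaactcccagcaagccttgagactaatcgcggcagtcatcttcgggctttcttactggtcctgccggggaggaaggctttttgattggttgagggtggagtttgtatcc

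The match lay 46 bases before the start in Xrcc6 and 52 in Fancg. It was farther out in Chek2 and Brca2, at 152 and 168 bases. Msh3, of the mismatch repair family, also met the rule for display, with matches at 202 and 198 bases, but its promoter is not printed. The log2 values (GFP+ over Tomato+) of the 9 genes with these letters had a median of -0.049 and ran from -0.16 to 0.35. Those of the 45 without them had a median of -0.0020 and ran from -0.48 to 0.40. A range widens with the number of genes, so the 2 ranges cannot be compared, and the medians were not tested.

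As deposited, the group means of most repair genes lay close together in the 2 fractions. Of the 71, 1 passed the test as higher and 0 as lower in GFP+, at an adjusted p under 0.05 in the authors' deposited table. That is 1.41%, against 7.49% of all rows called in either direction, 4.86% higher and 2.64% lower in GFP+. Among the 11261 rows whose overall mean lay within that of the repair genes, the share called was 7.57%. At an unadjusted p under 0.05, 4 of 71 passed (5.63%), among them Xrcc6, Parp8 and Parp4, against 16.2% of all rows, 10.2% higher and 6.01% lower. Xrcc6 and Parp8 had the higher mean in GFP+ and Parp4 the lower.

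The median log2 of the 71 genes was 0.0051, with 36 values above 0 and 35 below, against a median of 0.0095 over all rows and 0.021 over rows in the same range of means. The values ran from -0.48, that of Rad52, to 0.40. No repair gene reached 0.5 on the log2 scale, which is 1.41-fold, in either direction. That size was reached by 22.7% of all rows and by 14.4% of rows in the same range of means. A log2 value within 0.2 of 0 was found for 53 of the 71 (74.6%), against 54.2% of those rows. The group means of all rows sum to more in GFP+ than in Tomato+, and scaling both to the same total would lower every log2 by 0.16. The median of all rows is then -0.15 and that of the repair genes -0.15, with 11 above 0 and 60 below, so a sign is given below only as deposited. The sign also went with the level. In all rows, 43.3% of log2 values were above 0 at means of 50 to 200, 51.5% at 200 to 500, 60.7% at 500 to 1000 and 73.1% at 1000 to 4000, and the counts of signs by pathway stand beside that trend.

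**Figure D1:**
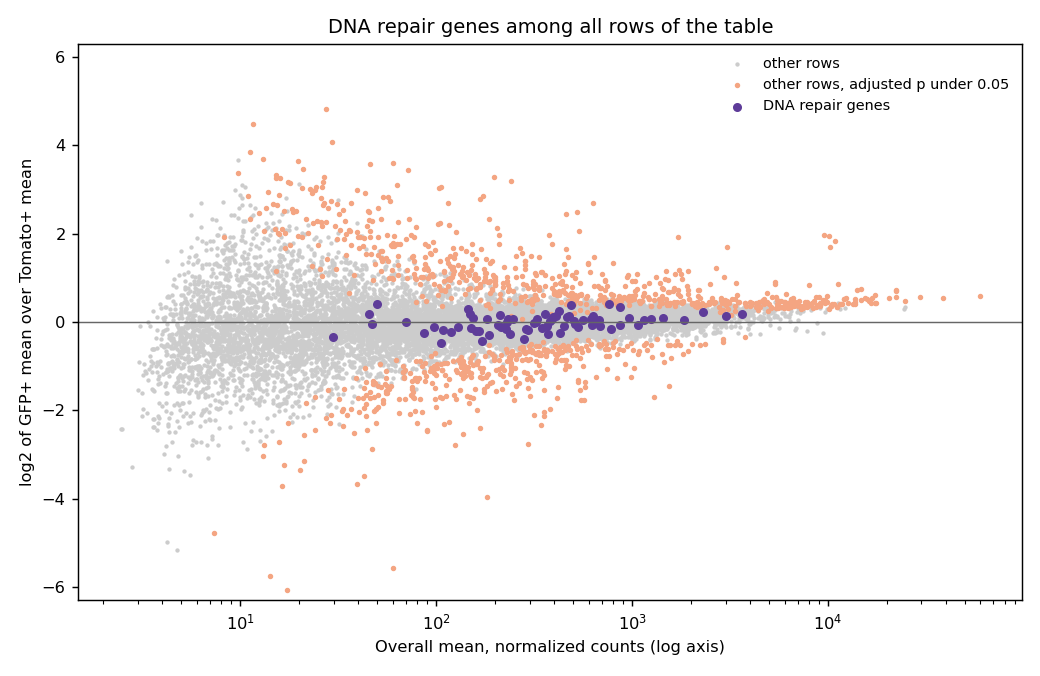
Log2 of the GFP+ mean over the Tomato+ mean (vertical axis) against the overall mean in normalized counts (horizontal log axis) for all 14268 rows. The 71 DNA repair genes are purple points and lie between -0.48 and 0.40, inside the spread of the other rows (grey, or orange where the authors' adjusted p is under 0.05).

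What the table can resolve depends on the size of a difference. Among rows with a mean of 200 to 4000, 100% of the 114 with a log2 difference of at least 1 were called, 90.6% of the 117 from 0.7 to 1, and 60% of the 230 from 0.5 to 0.7. The share was 28.0% of 304 rows from 0.4 to 0.5 and 3.58% of 642 from 0.3 to 0.4. Size alone did not decide a call, since 5 of 4432 rows with a difference under 0.2 were also called. A difference of the size seen in most repair genes was thus rarely called for any gene, and a p that misses the threshold does not show equal levels. The median size of the log2 difference, with its sign removed, was smaller in the repair genes than in all rows in each range of the mean. It was 0.19 in the repair genes against 0.23 in all rows for means of 50 to 200, and 0.12 against 0.15 for 200 to 500. For means of 500 to 1000 it was 0.073 against 0.13, and for 1000 to 4000 0.078 against 0.17. These ranges hold 16, 28, 15 and 8 repair genes, and the comparison is a description with no test.

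**Figure D2:**
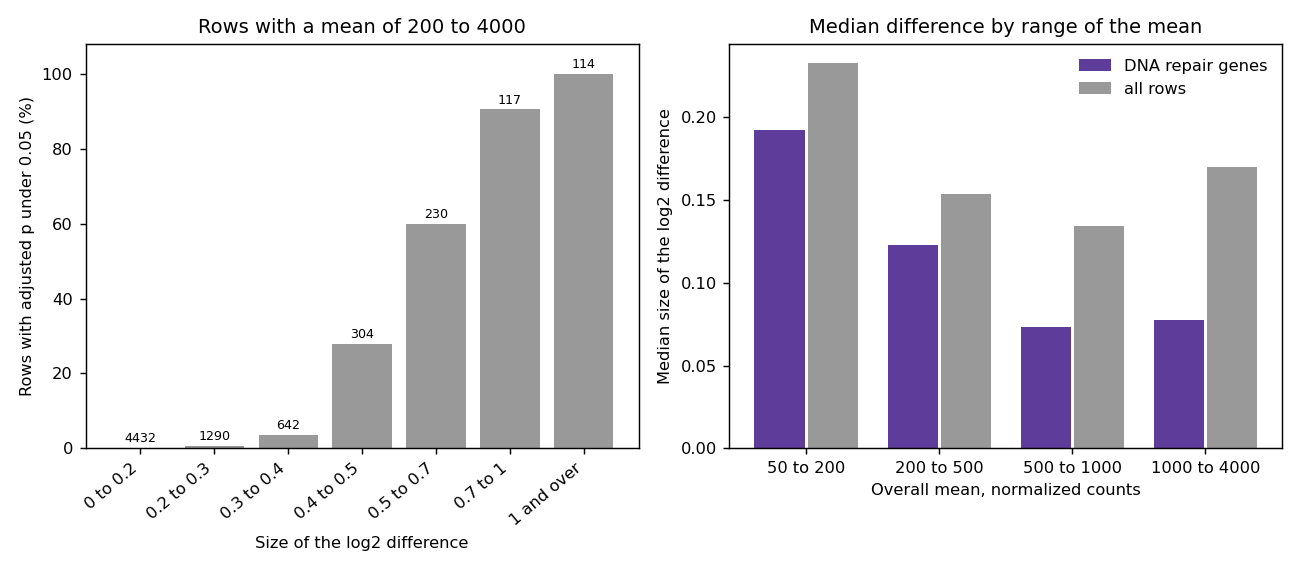
Left, the share of rows that passed the test (adjusted p under 0.05) by the size of the log2 difference, for rows with a mean of 200 to 4000; the number above a bar is its rows, and the share is 3.58% at 0.3 to 0.4 and 100% at 1 and over. Right, the median size of the log2 difference in the DNA repair genes (purple) and in all rows (grey) by range of the overall mean; the purple bar is the lower in each range.

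Genes that join broken ends without a template had log2 values of both signs, and none passed. Xrcc6 and Xrcc5 encode the Ku70 and Ku80 subunits that bind a broken end. Xrcc6 had the highest mean of the group and the smallest p, with 970.1 normalized counts in GFP+ against 762 in Tomato+ (log2 0.35, unadjusted p = 0.0208, adjusted p = 0.177 in the authors' deposited table). Its partner Xrcc5 had 484 normalized counts in GFP+ against 445 in Tomato+ (log2 0.12). Both Ku genes thus had the higher mean in GFP+, and neither passed. Prkdc, the DNA-dependent kinase that Ku recruits, stood at 511 in GFP+ against 550.0 in Tomato+ in the authors' deposited table (log2 -0.11). Lig4, the ligase that seals the break, had low means of 56.8 in GFP+ against 43.1 in Tomato+ (log2 0.40), while its scaffold Xrcc4 had 79.3 in GFP+ against 94.5 in Tomato+ (log2 -0.25). The ligase and its scaffold, which work as 1 complex, thus had log2 values of opposite sign at overall means under 100. The group's 5 log2 values had a median of 0.12, with 3 above 0. The median was 0.0068 without Lig4, whose overall mean falls just under a filter at 50.

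Homologous recombination copies a sister chromatid, and its 13 genes act from the first cut-back of the ends to the exchange of strands. None passed the test. Brca2, which starts strand exchange, had 663 normalized counts in GFP+ against 707 in Tomato+ in the authors' deposited table (log2 -0.093), and Brca1, which acts at end resection, 635 in GFP+ against 632 in Tomato+ (log2 0.0079). Both were thus within 0.1 of 0. Rad50, of the complex that first binds breaks, had the highest mean in the group, at 1170.1 in GFP+ against 1134 in Tomato+ in the authors' deposited table. Xrcc2, Xrcc3, Rad51c, Rad51l1 and Rad51l3, which act together in strand exchange, summed to 855 in GFP+ and 853 in Tomato+. Among them Xrcc2 had 223 in GFP+ against 201 in Tomato+ (log2 0.15), Xrcc3 236 in GFP+ against 227 in Tomato+, and Rad51c, one of the lowest means, 48.2 in GFP+ against 42.4 in Tomato+. Rad51l1, now named Rad51b, had 70.4 in GFP+ against 70.2 in Tomato+, and Rad51l3, now Rad51d, had 277 in GFP+ against 312 in Tomato+ (log2 -0.17). The sums were thus almost the same in both fractions.

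The lowest log2 of all 71 genes was that of Rad52, which anneals complementary strands, with 87.7 normalized counts in GFP+ against 123 in Tomato+ (1.40-fold lower in GFP+ by the means, adjusted p = 0.810 in the authors' deposited table). The DNA translocase Rad54b had 215 in GFP+ against 261 in Tomato+ (log2 -0.28), whereas the related Rad54l had 411 in GFP+ against 381 in Tomato+ (log2 0.11). Rad51ap1, a helper of strand exchange, had 334 in GFP+ against 320.5 in Tomato+ in the authors' deposited table. The median of the group was 0.045, with 9 of 13 values above 0. Of the 20 measured recombination genes outside the name rule, 10 were above 0 and 10 below, with a median of 0.037.

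Fanconi anemia genes had slightly lower means in GFP+ than in Tomato+ cells in 7 of 9 cases, none past the test. Their median log2 was -0.12, with a narrow range from -0.17 to 0.068. Fanca, of the core complex that modifies the FANCD2 and FANCI proteins, had the highest mean, 504 normalized counts in GFP+ against 519.6 in Tomato+ in the authors' deposited table. Fancc, also of the core, had the lowest log2, -0.17, at 102 in GFP+ against 115 in Tomato+. Fancb had the smallest p, with 124 in GFP+ against 135 in Tomato+ (log2 -0.12, adjusted p = 0.893 in the authors' deposited table). Other core genes were close to these, with Fancg at 216 in GFP+ against 241 in Tomato+, Fance at 206 in GFP+ against 223 in Tomato+ and Fancf at 94.0 in GFP+ against 102 in Tomato+. The log2 values of these 3 lay between -0.16 and -0.12. Fancm, the helicase that brings the core to DNA, had 332 in GFP+ against 365 in Tomato+ (log2 -0.14). The exceptions in sign were Fancl, the ubiquitin ligase of the core, at 185 in GFP+ against 177 in Tomato+ (log2 0.068), and Fanci, its substrate, at 387 in GFP+ against 379 in Tomato+ (log2 0.028). The 8 core genes summed to 1762 in GFP+ and 1877 in Tomato+ cells, a log2 of -0.091. Of the 11 measured Fanconi pathway genes outside the name rule, 5 were above 0 and 6 below, with a median of -0.047. Their sums leaned the other way, 5313 in GFP+ and 5123 in Tomato+ (log2 0.053).

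**Figure D3:**
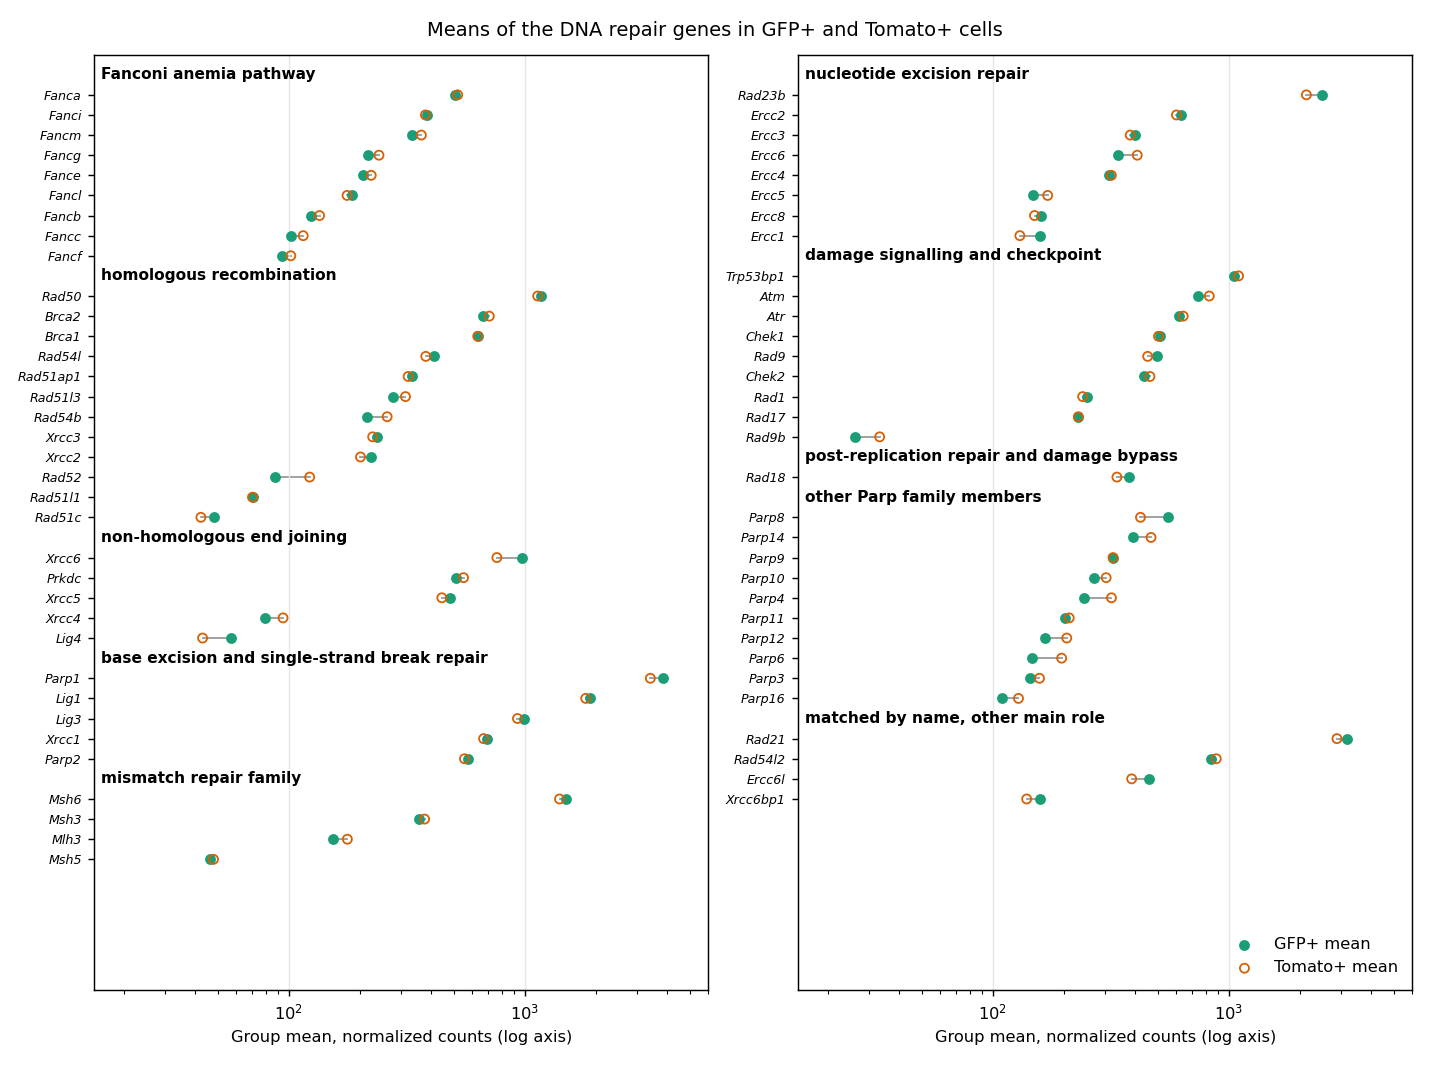
Group means in normalized counts (horizontal log axis) of 67 of the 71 DNA repair genes by pathway, with GFP+ as filled green points and Tomato+ as open orange circles joined by a line. Most pairs nearly coincide; the wider gaps include Xrcc6 (970.1 in GFP+, 762 in Tomato+) and Rad52 (87.7 in GFP+, 123 in Tomato+).

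In base excision and single-strand break repair all 5 genes had a log2 above 0, between 0.046 and 0.17, and none passed. All 5 had overall means over 500, where most rows of the table were above 0. Parp1, which senses strand breaks and builds poly(ADP-ribose), had the highest mean of the 71 genes, 3836 normalized counts in GFP+ against 3405 in Tomato+ (log2 0.17, adjusted p = 0.711 in the authors' deposited table). Parp2, its close relative, had 573 in GFP+ against 555 in Tomato+ (log2 0.046). Xrcc1, the scaffold of the pathway, had 694 in GFP+ against 669 in Tomato+ in the authors' deposited table. These sensor and scaffold genes thus differed little. The ligases followed, with Lig1, which also seals Okazaki fragments in replication, at 1881 in GFP+ against 1812 in Tomato+ (log2 0.054). Lig3, the partner of Xrcc1, had 992 in GFP+ against 931 in Tomato+ (log2 0.092).

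Nucleotide excision repair had a median log2 of 0.073 over 9 genes, with 6 above 0 and 3 below. Rad23b, a carrier of the damage sensor XPC, had 2490.3 normalized counts in GFP+ against 2132 in Tomato+ (log2 0.22, adjusted p = 0.611 in the authors' deposited table). The helicase genes Ercc2 and Ercc3 of TFIIH had nearly equal log2 values, 0.070 and 0.073. Their means were 629 in GFP+ against 599.8 in Tomato+ for Ercc2, and 402 in GFP+ against 382 in Tomato+ for Ercc3. Ercc1 had 159 in GFP+ against 130.2 in Tomato+ (log2 0.29), and Ercc4, which forms a nuclease with it, 312 in GFP+ against 318 in Tomato+ (log2 -0.026). The nuclease on the other side of the lesion, Ercc5, had 148 in GFP+ against 171 in Tomato+ (log2 -0.21) in the authors' deposited table. Ercc6, which responds to stalled transcription, had the lowest log2 of the group, -0.27, from 338 in GFP+ against 409 in Tomato+. Its partner Ercc8 had 159 in GFP+ against 150.2 in Tomato+ (log2 0.085).

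Mismatch repair genes had a median log2 of 0.010 over 6 genes, with 0 called. Msh6, which recognises mispaired bases, had 1488 normalized counts in GFP+ against 1403 in Tomato+ (log2 0.085) in the authors' deposited table. Msh3, which recognises larger loops, had 356 in GFP+ against 376 in Tomato+ (log2 -0.081). Mlh3, which follows the recognition step, had 155 in GFP+ against 177 in Tomato+ (log2 -0.20, adjusted p = 0.746 in the authors' deposited table). Msh5, known for its role in meiosis, had low means of 46.3 in GFP+ against 47.9 in Tomato+.

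Damage signalling genes had a median log2 of -0.062, with 6 of 9 below 0 and 0 called. Atm, the kinase activated by chromosome breaks, had 737 normalized counts in GFP+ against 826 in Tomato+ (log2 -0.16, adjusted p = 0.695 in the authors' deposited table). Atr, the kinase activated by stalled replication, had 614 in GFP+ against 641 in Tomato+ (log2 -0.062). Trp53bp1, which steers breaks to end joining, had the highest mean of the group, 1047 in GFP+ against 1099.8 in Tomato+ (log2 -0.070). The downstream kinases differed as little, with Chek1 at 509 in GFP+ against 504 in Tomato+ (log2 0.015) and Chek2 at 438 in GFP+ against 463 in Tomato+ (log2 -0.080). The sliding clamp genes Rad9 and Rad1 had log2 values of 0.13 and 0.063. Their means were 495 in GFP+ against 453 in Tomato+ for Rad9, and 251 in GFP+ against 240.2 in Tomato+ for Rad1, in the authors' deposited table. Hus1, the subunit of the clamp outside the name rule, had 321 in GFP+ against 385 in Tomato+ (log2 -0.26), and the 3 together summed to 1067 in GFP+ and 1078 in Tomato+. Rad17, which loads the clamp, had 230.1 in GFP+ and 230.4 in Tomato+, the smallest difference of the 71 on the log2 scale, at -0.0020. Rad9b, a paralog of Rad9, had the lowest mean of the 71, 26.2 in GFP+ against 33.1 in Tomato+. The 17 measured signalling genes outside the name rule leaned the other way, with 12 above 0, 5 below and a median log2 of 0.062. Rad18, the ubiquitin ligase that starts damage bypass and the sole gene of that group under the rule, had 379 in GFP+ against 336 in Tomato+ (log2 0.18).

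The other Parp genes, most of which transfer single ADP-ribose units and are not repair enzymes in the strict sense, mostly had the higher mean in Tomato+. Of 10, 9 had a log2 below 0, with a median of -0.20, and none passed. Parp6 had the lowest, -0.42, with 146 normalized counts in GFP+ against 196 in Tomato+ (adjusted p = 0.534 in the authors' deposited table). Parp4, a component of vault particles, had 244 in GFP+ against 318 in Tomato+ (log2 -0.38, unadjusted p = 0.0389, adjusted p = 0.265 in the authors' deposited table). The exception was Parp8, at 551 in GFP+ against 422 in Tomato+ (log2 0.38, unadjusted p = 0.0436, adjusted p = 0.283 in the authors' deposited table). The interferon-induced genes Parp9, Parp10, Parp12 and Parp14 had log2 values of -0.0037, -0.17, -0.30 and -0.25. Parp14 had the highest mean of these, 393 in GFP+ against 468 in Tomato+. Parp3, which has a known role at breaks, had 143 in GFP+ against 158 in Tomato+. Parp11 had 201 in GFP+ against 211 in Tomato+, and Parp16, of the endoplasmic reticulum, 109 in GFP+ against 128 in Tomato+.

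The name rule also took 4 genes whose main role is another. Rad21, a cohesin subunit that holds sister chromatids together, had 3158 normalized counts in GFP+ against 2873 in Tomato+ (log2 0.14, adjusted p = 0.690 in the authors' deposited table). Ercc6l, a mitotic helicase, had 459.9 in GFP+ against 388 in Tomato+ (log2 0.25). Rad54l2, a chromatin remodeller, had 841 in GFP+ against 885 in Tomato+ (log2 -0.073), and Xrcc6bp1, now Atp23, 159 in GFP+ against 139 in Tomato+ (log2 0.19). None passed.

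**Figure D4:**
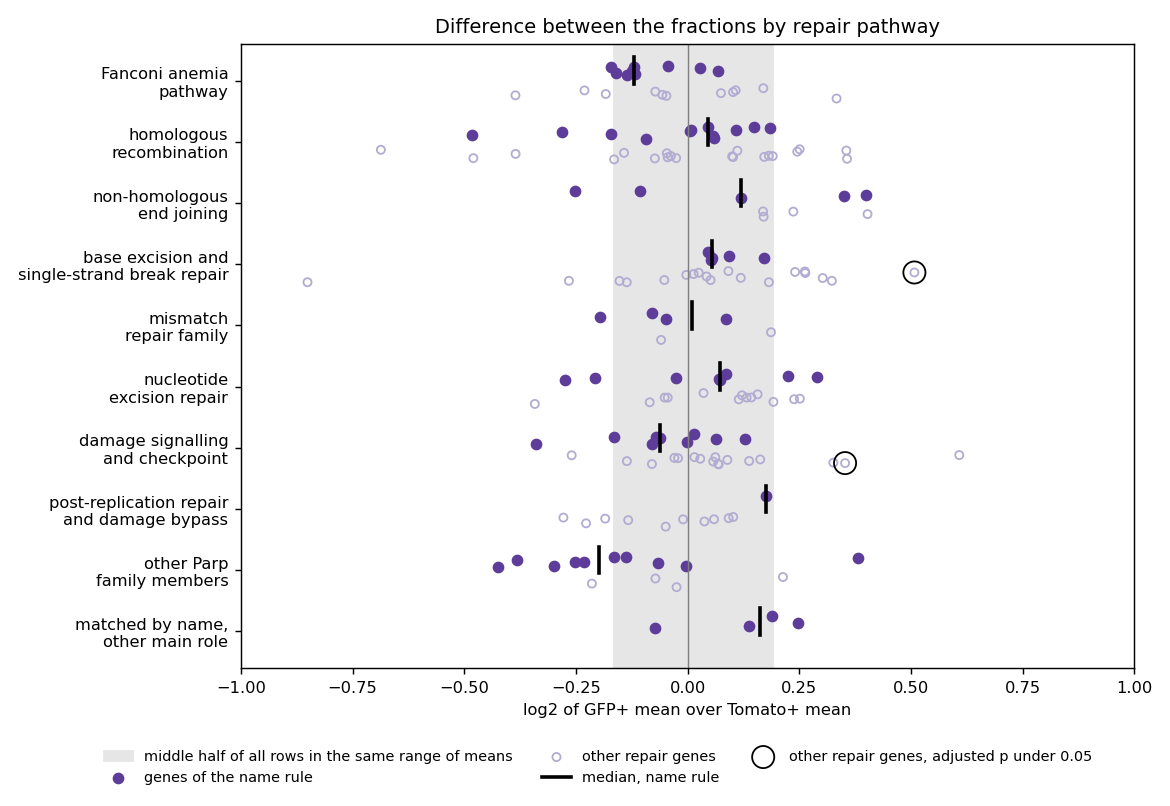
Log2 of the GFP+ mean over the Tomato+ mean for each gene by pathway, with 67 of the 71 genes of the name rule as filled points, the median of all genes of the rule as a bar, and the other repair genes as open circles (Polm, at -1.86, lies outside the axis). The 3 direct reversal genes are not drawn. The grey band spans the lower to the upper quartile of all rows in the same range of means; the ringed genes, other repair genes with an adjusted p under 0.05, are Apex1 (0.51) and H2afx (0.35).

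Levels can be compared between genes only per length, so each mean was divided by the merged exon length of the gene (GENCODE M21, GRCm38), which stands in for the lengths the authors counted over. On this scale of normalized counts per kilobase, Rad21 came first with 746 in GFP+ and 679 in Tomato+. Parp1 followed with 725 per kilobase in GFP+ and 643 in Tomato+. Lig1 had 441 per kilobase in GFP+ and 425 in Tomato+. Genes of base excision thus stood among the highest per length, with Rad23b at 434 in GFP+ and 372 in Tomato+ near them. Msh6 had 342 per kilobase in GFP+ and 323 in Tomato+, whereas Msh3 had 31.6 in GFP+ and 33.4 in Tomato+. Merged exons take in every annotated isoform, 11.3 kb for Msh3 and 23.6 kb for Atr, so genes with long annotated isoforms can rank low. Of the Ku genes, Xrcc6 had 217 per kilobase in GFP+ and 170.1 in Tomato+, and Xrcc5 189 in GFP+ and 174 in Tomato+. Over the 71 genes the overall mean per kilobase ran from 6.86 for Rad9b to 712 for Rad21, with a median of 57.9.

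Repair genes outside the name rule were also read. Of 113 such genes listed by pathway, 104 were measured. At the authors' adjusted p, 2 of these passed as higher in GFP+ and 0 as lower, with a median log2 of 0.047. Apex1, the endonuclease that cuts at abasic sites, had 1650.3 normalized counts in GFP+ against 1161 in Tomato+ (log2 0.51, adjusted p = 0.0113 in the authors' deposited table). H2afx, the histone variant phosphorylated at breaks, had 2350.5 in GFP+ against 1841 in Tomato+ (log2 0.35, adjusted p = 0.0306 in the authors' deposited table). In both lists together, 3 of 175 genes passed, all of them higher in GFP+ cells, where 7.49% of all rows passed. At that share, lists as short as the single pathways hold few calls or none. By pathway, 1 of 19 base excision genes and 1 of 17 signalling genes passed, and 0 of 11 Fanconi, 20 recombination, 5 end joining, 13 nucleotide excision, 2 mismatch, 10 bypass, 4 Parp family and 3 direct reversal genes.

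Fancd2, the central substrate of the Fanconi core that the name rule leaves out, had 402 normalized counts in GFP+ against 374 in Tomato+ in the authors' deposited table (log2 0.10). Pcna, the replication clamp, had 3764 in GFP+ against 3009 in Tomato+ (log2 0.32, adjusted p = 0.0833 in the authors' deposited table), and Wrn, a RecQ helicase, 408 in GFP+ against 568 in Tomato+ (log2 -0.48, adjusted p = 0.0668). These came close to the threshold from opposite sides of 0. Polm, an end joining polymerase, had low means of 12.4 in GFP+ against 45.1 in Tomato+, the largest difference of the list on the log2 scale at -1.86 (adjusted p = 0.125 in the authors' deposited table). Trp53, the damage-activated transcription factor, had 2044 in GFP+ against 1949 in Tomato+ (log2 0.069), and its target Cdkn1a, an inhibitor of cyclin-dependent kinases, had 38.4 in GFP+ against 25.2 in Tomato+ (log2 0.61, adjusted p = 0.673 in the authors' deposited table). The single-strand binding genes Rpa1, Rpa2 and Rpa3 had log2 values of 0.19, 0.18 and 0.36. Fancd2, Pcna, Wrn, Polm, Trp53, Cdkn1a and the Rpa genes were chosen after their values were seen, and none of them passed.

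Cell cycle and cell type genes are set beside the repair genes because repair is coupled to replication and because genes of other liver cells also differed between the fractions. Of 20 S phase genes, 1 was higher and 0 lower in GFP+, near the 4.86% of all rows called higher, with a median log2 of 0.18 and summed means of 34680.3 in GFP+ and 30615 in Tomato+. Of 20 mitosis genes, 4 were higher and 0 lower, with a median of 0.34 and summed means of 46298 in GFP+ and 36472 in Tomato+. The repair genes as a whole, with a median of 0.0051 and sums of 38407 in GFP+ and 36936 in Tomato+, lay below both lists, a difference that was not tested. Level was not matched in this comparison, and the overall means of the repair genes had a median of 357. At means of 1000 to 4000 the median log2 was 0.13 in all rows and 0.077 in the 8 repair genes there. Apex1 (log2 0.51) and H2afx (0.35) moved in the direction of the S phase and mitosis lists, and the part of cell cycle genes in their differences was not tested.

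Genes of other liver cells were also higher in GFP+. Of 9 measured hepatoblast genes 8 were called higher, where 4.86% of all rows were, with sums of 3245 in GFP+ and 1663 in Tomato+. The exception was Dlk1, at 811 in GFP+ against 993 in Tomato+ (log2 -0.29), the largest part of the Tomato+ sum. Of 10 macrophage genes 8 were called higher, with sums of 1467 in GFP+ and 473 in Tomato+, while Mrc1 (log2 -0.48) and Cd68 (0.15) did not pass. Of 9 erythroid genes 7 were called higher, with sums of 36934 in GFP+ and 11197 in Tomato+. Most of the erythroid sums came from the globin genes Hba-a2, at 16122 in GFP+ against 4190.4 in Tomato+, and Hbb-b1, at 15589 in GFP+ against 4779.6 in Tomato+, in the authors' deposited table, values that are uncertain because globin genes have near-identical copies. The 7 include Blvrb and Rhag at log2 values of only 0.18 and 0.15, and Epor (-0.89) and Klf1 (-0.46) did not pass. None of their measured markers was at 0 in either fraction. The lowest overall mean of any row was 2.47, so a marker without reads in both fractions could not appear among them. All 9 measured lymphoid genes were higher in GFP+, with a median log2 of 3.03, and all 10 stem cell genes lower, with a median of -1.28. In bulk samples, fewer cells of a type and less RNA per cell cannot be told apart, and the part of these cells in the repair gene values was not tested.

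**Figure D5:**
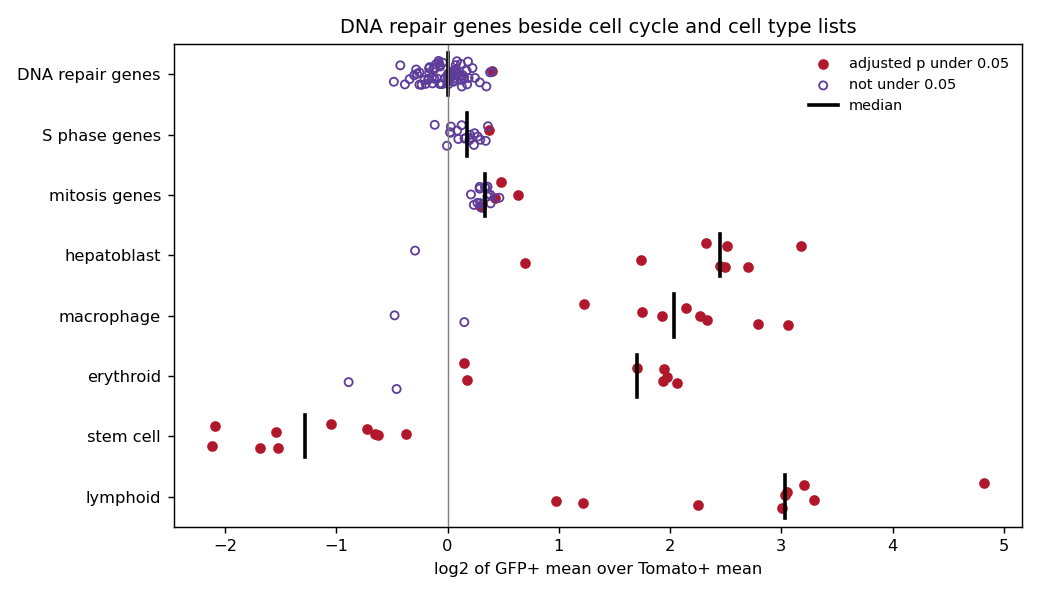
Log2 of the GFP+ mean over the Tomato+ mean for the 71 DNA repair genes and for 7 lists of cell cycle and cell type genes (rows), with red points where the authors' adjusted p is under 0.05, open points elsewhere, and the median as a bar. The repair genes lie between -0.48 and 0.40 around a median of 0.0051, while the medians of the lists run from -1.28 (stem cell) to 3.03 (lymphoid).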

How the data were processed

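RNA was sequenced from 4 GFP+ and 4 Tomato+ libraries, made with the NEBNext Ultra kit from total RNA, per the labels' protocols. The submitters' processing notes name DESeq, bedtools, TopHat, TopHat2 2.0.11, Bowtie2 2.2.1 and build mm9; what each tool was used for and whether strand was read are not stated in the labels. In the table the authors deposited, each row has normalized counts, a signal averaged over all libraries and over each fraction. The authors also give a fold (Tomato+ mean divided by GFP+ mean), the log2 of that fold, and a raw and an adjusted p-value. The deposited fold matched its means within a relative 7.8e-07, and the adjusted p matched a Benjamini-Hochberg adjustment over all 14268 rows within 5.3e-08. The log2 was recomputed from the means as GFP+ over Tomato+, with no pseudocount, and a repeated header line was dropped.

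Every call is the authors' own, at an adjusted p under 0.05. The fixed plan allowed for a test on counts per library, but the table holds none, so the authors' comparison was read instead. Members and lists were chosen with earlier results of these data known. Genes were named by a rule that took called genes and, per pathway, the gene with the highest mean, the smallest p and the largest log2 on each side of 0 at a mean of at least 50; it named 29 genes, and others are given to account for the members. A few genes are not reported here, though counts, medians and sums over a list include them. Exon lengths for all 71 genes came from GENCODE M21, with 4 matched through a synonym in RefSeq. The files use mm9 and the reference is GRCm38, so coordinates are given only for RefSeq promoters. The counting of reads shared by related or overlapping genes is not stated, so values of such genes are uncertain. Reading, counting and adjustment were tested on simulated data. Python 3.11.15, pandas 2.3.3, numpy 2.4.6 and matplotlib 3.10.9 were used.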

Additional observations from a re-analysis of the deposited data

How the results depend on the processing

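No paired analysis was possible because only means over each fraction were at hand. Leaving out single libraries, other size factors and a filter on counts per library were therefore not run, and neither the spread between libraries nor the depth behind a mean is known. The count of 1 repair gene called was also 1 with an adjusted p threshold of 0.1 and after filters at a mean of 50 or 200. It was 1 as well with 1 row per symbol and without the 4 genes of another main role. A recomputed adjustment repeats the authors' own calculation, so its count of 1 was fixed in advance. The count was 0 for a threshold of 0.01, 0 after Bonferroni adjustment and 0 for log2 changes of at least 0.5, each a stricter criterion, and 4 at an unadjusted p under 0.05 (chosen after seeing the data). The median log2 of the 71 genes, 0.0051, was -0.15 with both groups scaled to the same total, -0.026 when centred on the median of the rows above a mean of 50, and -0.0020 without the 4 genes of another main role (chosen after seeing the data), each through a shift or a change of members that exceeds its distance from 0. It was 0.0051 among genes with a mean of at least 50. Of 10 pathway medians, 5 changed sign under equal totals and 1 with centring. Of 29 named genes, 7 changed sign under equal totals, none of them called, and 0 with centring.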

Other observations

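Other genes of chromosome maintenance were read in lists written after the repair genes had been seen. Of 8 cohesin genes beside Rad21, 0 passed, where 7.49% of all rows did, and their log2 values ran from -0.14 to 0.17. Smc1a and Smc3, the long arms of the ring that Rad21 closes, had 3011 normalized counts in GFP+ against 2758 in Tomato+ for Smc1a and 2418 in GFP+ against 2147 in Tomato+ for Smc3 in the authors' deposited table. The SMC5/6 complex acts at stalled forks, and 0 of its 6 genes passed. Smc5 had 881 in GFP+ against 1074 in Tomato+ (log2 -0.29, adjusted p = 0.148) and its partner Smc6 1209 in GFP+ against 1111 in Tomato+ (log2 0.12) in the authors' deposited table, so that the partners had log2 values of opposite sign.

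Of 8 RecQ helicase and topoisomerase genes, 0 passed, 2 had an unadjusted p under 0.05, where 16.2% of all rows did, and 7 had a log2 above 0. This list does not hold the RecQ helicases Wrn (log2 -0.48) and Blm (log2 0.10), which were read with the other repair genes, so its counts do not describe the whole family. The median size of the log2 differences of the 8 listed genes was 0.19, that of the SMC5/6 genes 0.18 and that of the cohesin genes 0.077, against 0.18 for all rows in the range of the repair genes' means. Top2a, the topoisomerase of dividing cells and also in the mitosis list, had 7826 normalized counts in GFP+ against 6105 in Tomato+ (log2 0.36, adjusted p = 0.0621 in the authors' deposited table). Top2b had 3109 in GFP+ against 2791 in Tomato+ (log2 0.16). Among 6 chromatin factors that act at breaks, 0 passed. Ruvbl2, a helicase of remodelling complexes, had 1754 in GFP+ against 1438 in Tomato+ (log2 0.29), and Ino80, the ATPase of such a complex, 697 in GFP+ against 806 in Tomato+ (log2 -0.21) in the authors' deposited table. Of 2 measured cytidine deaminase genes, 0 passed. Apobec3, which restricts retroviruses, had 1788 in GFP+ against 1457 in Tomato+ (log2 0.29, adjusted p = 0.322 in the authors' deposited table), and Apobec1, an editor of messenger RNA, 84.9 in GFP+ against 108.4 in Tomato+ (log2 -0.35, adjusted p = 0.926 in the authors' deposited table).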
